A study of Mus musculus with 6 samples.

Results

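The genes described here encode receptors for the constant part of antibodies (Fc receptors), related receptors of myeloid cells, and the small adaptor proteins through which such receptors signal. They were 9 genes, Fcer1g, Tyrobp, Fcgr1, Fcgr2b, Fcgr3, Fcgr4, Trem2, Clec7a and Lair1, chosen by name and found through probe sets that the platform annotation assigns to a single gene. The array held 17 such probe sets for them among 45101 in all. For each gene the probe set that was brightest on average across the 6 arrays was used, and all 9 were among the 15027 genes tested after dim probe sets were left out. A gene that is bright in only 1 population can pass such a filter through that population alone, so passing it says nothing about a difference.

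Tumours of MMTV-Wnt-1 mice were studied, a transgenic line in which the promoter of mouse mammary tumour virus drives Wnt1 in the mammary gland, so all tumour cells compared came from the same oncogene model. Cells were sorted by fluorescence into a population labelled tumorigenic, gated as CD24+Thy+CD45-, and a population labelled nontumorigenic, described as the cells outside that gate (Not CD24+Thy+CD45-). Each population of mice TG1, TG2 and TG3, called mice 1, 2 and 3 below, was hybridised to 1 Affymetrix array, which gave 3 arrays against 3, from separate animals within a population and from the same animals across populations. The labels give no age, strain background or treatment, and the text of the label does not settle whether the excluded gate leaves CD45+ cells in or out of the second population. Values are log2 expression on the scale of robust multi-array average (RMA), and the arrays had medians between 4.36 and 4.40. The 3′ control probe set of Gapdh exceeded the 5′ one, a sign of RNA integrity and amplification, by 2.62 to 6.60 log2 units in the labelled tumorigenic arrays, with the highest value in mouse 2, and by 2.41 to 3.78 in the labelled nontumorigenic arrays. Its part in the results was not tested, and the median difference of the 9 genes was 2.91 when that array of mouse 2 was left out, against 3.35 with it.

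In myeloid cells most activating Fc receptors have no signalling tail of their own. They sit in the membrane with the FcR gamma chain, encoded by Fcer1g, whose tail carries an immunoreceptor tyrosine-based activation motif (ITAM). Tyrobp encodes DAP12, an adaptor of the same kind that serves Trem2 and many other receptors. Phosphorylated ITAMs recruit the kinase Syk, whereas receptors with inhibitory motifs, such as Fcgr2b and Lair1, recruit phosphatases that oppose it. Macrophages express most of this machinery, natural killer (NK) cells, mast cells and neutrophils express parts of it, and Fcgr2b is also the Fc receptor of B cells.

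The gate called for cells without CD45, so the leukocyte antigen gene was read first. Ptprc, which encodes CD45, had 10.21, 7.76 and 3.82 in the labelled tumorigenic arrays of mice 1, 2 and 3, and 2.33, 3.59 and 2.51 in the labelled nontumorigenic arrays of the same mice. These are RNA levels from 1 of 2 probe sets tested, while the gate reads CD45 protein, which the arrays do not measure. Ptprc RNA was higher in the labelled tumorigenic array of each mouse, by 7.88, 4.17 and 1.31 in mice 1, 2 and 3. The word labelled is kept before each population for that reason. In RNA from a whole sorted population, fewer cells of a type and less RNA per cell cannot be told apart.

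The stretches of DNA before the transcription start are shown because the 9 genes were high on the same arrays, and these are where myeloid transcription factors are known to act. RefSeq sequences of build GRCm38.p6 were matched by symbol for 8 of the 9 genes, and the upstream part of 250 bases was searched on both strands for GAGGAA, a spelling that had been picked with the sequences in view. It is the PU box bound by PU.1, the factor encoded by Spi1. The 170 bases before the start are printed 5′ to 3′ on the strand of the gene, with matches to the PU box or to its reverse complement in capitals. Lair1 and Fcgr3 are shown as genes with a large difference, Fcgr4, Trem2 and Fcgr1 as genes with a smaller one, and Fcer1g as the adaptor.
Lair1 (chr7:4063205-4063374, minus strand): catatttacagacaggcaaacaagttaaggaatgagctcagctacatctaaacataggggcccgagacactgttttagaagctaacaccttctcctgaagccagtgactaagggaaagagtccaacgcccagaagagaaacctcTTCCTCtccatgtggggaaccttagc
Fcgr3 (chr1:171059404-171059573, minus strand): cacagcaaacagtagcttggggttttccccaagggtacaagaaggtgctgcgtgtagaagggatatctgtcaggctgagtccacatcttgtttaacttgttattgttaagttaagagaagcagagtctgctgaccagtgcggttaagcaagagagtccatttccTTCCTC
Fcgr4 (chr1:171018756-171018925, plus strand): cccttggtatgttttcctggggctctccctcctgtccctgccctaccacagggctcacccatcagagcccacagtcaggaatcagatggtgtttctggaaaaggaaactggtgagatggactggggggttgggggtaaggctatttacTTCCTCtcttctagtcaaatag
Trem2 (chr17:48346231-48346400, plus strand): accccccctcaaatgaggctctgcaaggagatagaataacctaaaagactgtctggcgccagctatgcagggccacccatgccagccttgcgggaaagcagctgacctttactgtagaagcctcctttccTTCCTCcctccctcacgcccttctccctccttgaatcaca
Fcgr1 (chr3:96293970-96294139, minus strand): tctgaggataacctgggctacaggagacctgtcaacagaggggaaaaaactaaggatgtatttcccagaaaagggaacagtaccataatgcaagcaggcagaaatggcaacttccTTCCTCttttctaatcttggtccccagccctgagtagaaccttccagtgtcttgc
Fcer1g (chr1:171234350-171234519, minus strand): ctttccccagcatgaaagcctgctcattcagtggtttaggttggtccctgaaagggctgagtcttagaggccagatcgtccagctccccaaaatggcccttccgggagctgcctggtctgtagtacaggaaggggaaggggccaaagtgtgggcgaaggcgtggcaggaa

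The PU box spelling was found before 6 of the 8 genes, Fcgr1, Fcgr3, Fcgr4, Trem2, Clec7a and Lair1, and before 23.1% of 27025 mouse genes searched in the same way. In Lair1 the match began 26 bases before the start, in Fcgr4 22 bases, in Trem2 40 bases and in Fcgr1 55 bases, while in Fcgr3 it filled the 6 bases next to the start and in Clec7a it began 96 bases before it. It was not among these letters for Fcer1g and Fcgr2b. No 2 matches overlapped. These are matches of letters and were not tested as binding sites. The upstream windows of Fcgr2b, Fcgr4, Fcgr3 and Fcer1g lay within 258.4 kb of one another on chromosome 1, so these 4 genes are neighbours.

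All 9 genes had a higher mean in the labelled tumorigenic arrays than in the labelled nontumorigenic ones, where 50.7% of all genes had one, and none passed the adjusted test. The median of their log2 differences was 3.35, beside 0.0051 over all 15027 genes. It was 2.36 when the probe sets of each gene were averaged. A probe set can be the brightest of its gene through 1 population alone. In Lair1, Fcgr2b, Fcgr1 and Trem2, which had several probe sets, the one used had the largest difference. By mouse, the median of the 9 was 5.39 in mouse 1, 3.61 in mouse 2 and 0.95 in mouse 3, beside -0.033, 0.042 and 0 over all genes. When mouse 3's labelled tumorigenic array, which had the least Ptprc of its population, was left out, 3 of the 9 passed the limma adjusted threshold, Tyrobp, Lair1 and Fcer1g, where 0.12% of all genes did. That array was also the lowest of its population in all 9 genes, so leaving it out raises every labelled tumorigenic mean by construction. In the 3 that passed, the SE fell as well, for Tyrobp from 1.36 to 0.46. The 3 passes therefore describe how the fit depends on that array and are not support for a difference. With both arrays of mouse 3 left out 0 of the 9 passed, the smallest limma adjusted p being 0.202, and 0 passed with any other array or mouse left out.

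The adaptor Tyrobp read 10.06, 8.69 and 4.52 in the labelled tumorigenic arrays of mice 1, 2 and 3, and 3.68, 3.03 and 3.52 in the labelled nontumorigenic arrays. The populations did not overlap, but the lowest labelled tumorigenic array was far closer to the labelled nontumorigenic arrays than to the other two. The labelled tumorigenic mean was 7.76 ± 2.89 and the labelled nontumorigenic mean 3.41 ± 0.34 (SD, n = 3 each), which is 4.34 log2 units apart with an SE of 1.36 (limma adjusted p = 0.507). With mouse 3 left out of the labelled tumorigenic arrays, the gap was 5.96 with an SE of 0.46 (limma adjusted p = 0.0424). With both arrays of mouse 3 left out it was 6.02 (limma adjusted p = 0.202), and with mouse 1's labelled tumorigenic array left out it was 3.19 (limma adjusted p = 0.818).

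Fcer1g, the gamma chain that Fcgr1, Fcgr3 and Fcgr4 need to signal, had 9.28, 7.99 and 4.56 in the labelled tumorigenic arrays and 3.89, 3.71 and 3.61 in the labelled nontumorigenic arrays. The order of the mice was that of Tyrobp in the labelled tumorigenic arrays, and the labelled nontumorigenic arrays lay close together. Fcer1g averaged 7.27 ± 2.44 in the labelled tumorigenic arrays and 3.74 ± 0.14 in the labelled nontumorigenic arrays (SD, n = 3 each). The log2 difference was 3.54 with an SE of 1.15 (limma adjusted p = 0.522), and 4.89 with an SE of 0.41 when that array of mouse 3 was left out (limma adjusted p = 0.0469). Leaving out both arrays of mouse 3 gave 4.83 (limma adjusted p = 0.202), and leaving out mouse 1's labelled tumorigenic array gave 2.54 (limma adjusted p = 0.818).

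**Figure D1:**
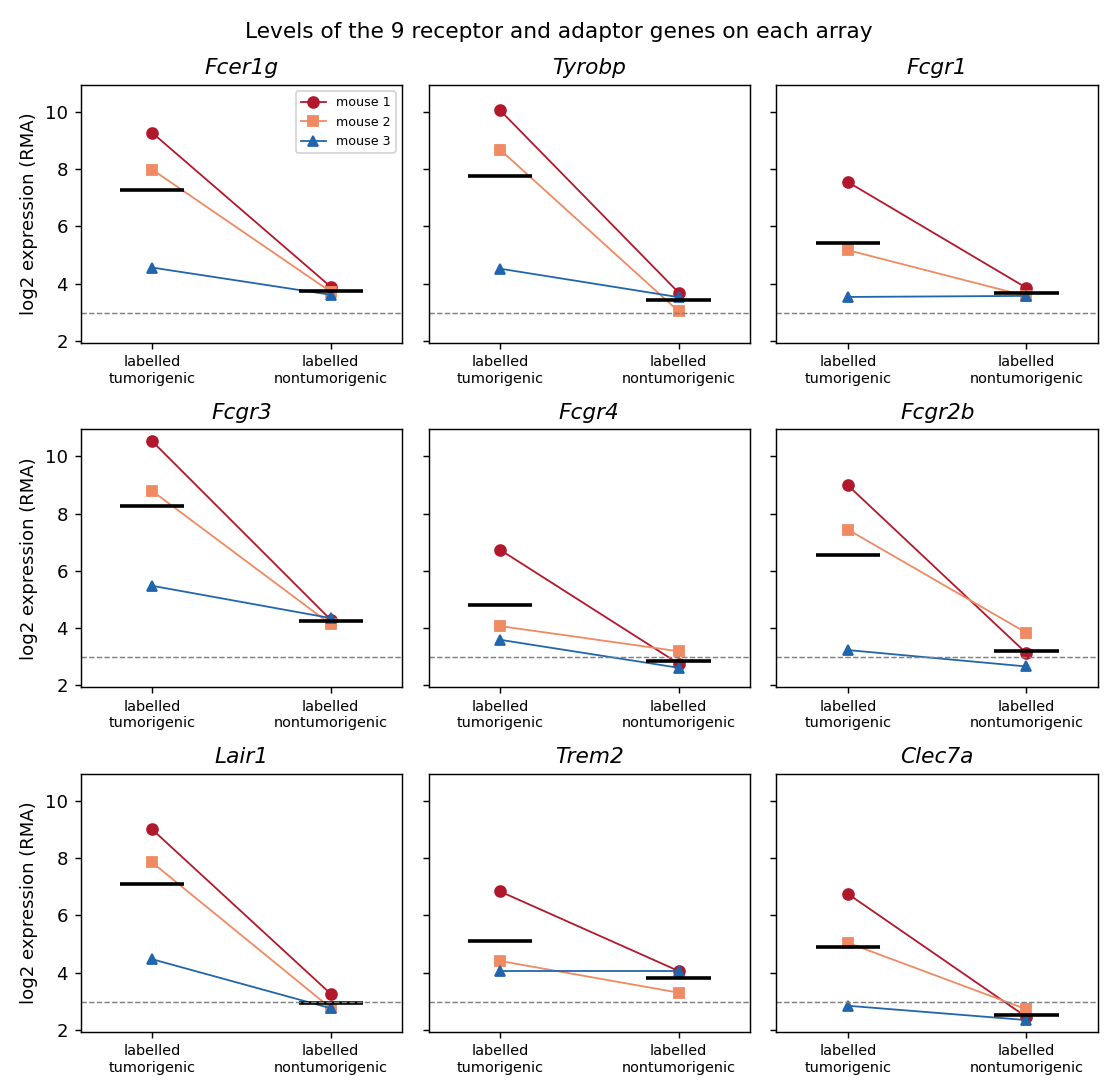
Log2 expression (RMA) of each of the 9 genes on the 6 arrays, with the labelled tumorigenic population on the left and the labelled nontumorigenic on the right of each panel; symbols and lines mark the mice, black bars the means of 3 arrays, and the dashed line the level of 2.98 below which probe sets were left out by their mean. The labelled tumorigenic arrays of mice 1 and 2 stand highest in each panel, and mouse 3 runs nearly flat for Fcgr1 and Trem2.

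Among the activating receptors for immunoglobulin G, Fcgr3, a receptor of low affinity for immune complexes, differed the most. It read 10.54, 8.80 and 5.48 in the labelled tumorigenic arrays of mice 1, 2 and 3, against 4.29, 4.13 and 4.35 in the labelled nontumorigenic arrays. All labelled tumorigenic arrays were above all labelled nontumorigenic arrays, which differed from each other little. Fcgr3 averaged 8.27 ± 2.57 in the labelled tumorigenic arrays and 4.26 ± 0.11 in the labelled nontumorigenic arrays (SD, n = 3 each). The log2 difference was 4.01 with an SE of 1.21 (limma adjusted p = 0.486). It was 5.41 when mouse 3's labelled tumorigenic array was left out (limma adjusted p = 0.0624). Without both arrays of mouse 3 it was 5.45 (limma adjusted p = 0.207), and without mouse 1's labelled tumorigenic array 2.88 (limma adjusted p = 0.784).

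Fcgr4, a receptor of intermediate affinity on macrophages and neutrophils, read 6.74, 4.07 and 3.59 in the labelled tumorigenic arrays and 2.76, 3.19 and 2.61 in the labelled nontumorigenic arrays. The populations did not overlap, and mouse 1 stood apart. Fcgr4 was on average 1.95 log2 units higher (SE 0.81; limma adjusted p = 0.593), with differences of 3.98, 0.88 and 0.98 in mice 1, 2 and 3. Fcgr4 was the exception among the 9 to the order of mouse 1, then mouse 2, then mouse 3.

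Fcgr1, the receptor of high affinity, had 7.55, 5.17 and 3.53 in the labelled tumorigenic arrays and 3.85, 3.56 and 3.57 in the labelled nontumorigenic arrays. The labelled tumorigenic array of mouse 3 was the lowest of the 6 arrays, so the populations overlapped. Its log2 difference was 1.76 (95% interval -0.57 to 4.08; limma adjusted p = 0.665). A second probe set of Fcgr1 had a difference of -0.32, so the direction for this gene rests on the brighter probe set.

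Fcgr2b, the inhibitory receptor for immunoglobulin G, read 8.99, 7.44 and 3.23 in the labelled tumorigenic arrays of mice 1, 2 and 3, against 3.12, 3.83 and 2.66 in the labelled nontumorigenic arrays. Mouse 2 had the highest labelled nontumorigenic value and mouse 3 the lowest, and the populations overlapped. On average Fcgr2b was 3.35 log2 units higher (SE 1.42, limma adjusted p = 0.597), and 5.02 higher when mouse 3's labelled tumorigenic array was left out (limma adjusted p = 0.0647). Without both arrays of mouse 3 it was 4.74 higher (limma adjusted p = 0.207), and without mouse 1's labelled tumorigenic array 2.13 (limma adjusted p = 0.861). Of the other probe sets of Fcgr2b, 3 had differences of 2.16, 2.10 and 0.94, each of them positive in mice 1 and 2 and negative in mouse 3. The fifth, which was under the dim limit, had -0.095. Fcgr2b and Fcgr3 resemble each other in their extracellular parts, and cross-hybridisation between their probes was not tested.

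The inhibitory and the activating low-affinity receptor were thus high on the same arrays. Within mice 1, 2 and 3 the log2 differences of the inhibitory Fcgr2b were 5.87, 3.61 and 0.57, and those of the activating Fcgr3 were 6.25, 4.66 and 1.13. On the probe sets used, the spread between mice had an SD of 2.66 for Fcgr2b and 2.62 for Fcgr3. It was larger than the gap between these 2 probe sets in any mouse. This does not hold for every probe set of Fcgr2b, since 1 above the dim limit had 2.08, 0.84 and -0.10 in mice 1, 2 and 3. Levels of 2 probe sets cannot be set against each other, and the difference between the genes was not tested.

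Lair1, an inhibitory receptor for collagen, had the smallest p of the 9. It read 9.01, 7.85 and 4.47 in the labelled tumorigenic arrays and 3.26, 2.76 and 2.75 in the labelled nontumorigenic arrays. The populations were apart by more than 1 log2 unit on the probe set used. On it mouse 3 had a difference of 1.72, larger than on the probe sets used for the other 8 genes. Lair1 averaged 7.11 ± 2.36 in the labelled tumorigenic arrays and 2.92 ± 0.29 in the labelled nontumorigenic arrays (SD, n = 3 each). The log2 difference was 4.19 with an SE of 1.12 (limma adjusted p = 0.449), and 5.51 with an SE of 0.40 when the labelled tumorigenic array of mouse 3 was left out (limma adjusted p = 0.0424). Leaving out both arrays of mouse 3 gave 5.42 (limma adjusted p = 0.202), and leaving out mouse 1's labelled tumorigenic array gave 3.24 (limma adjusted p = 0.775). The labelled nontumorigenic mean was under the dim limit of 2.98, so the size is rough. The other probe sets of Lair1 had differences of 1.76 and 1.11, with 0.25 and 0.069 in mouse 3.

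Trem2, a lipid-sensing receptor that pairs with the Tyrobp adaptor, read 6.84, 4.41 and 4.05 in the labelled tumorigenic arrays of mice 1, 2 and 3, and 4.05, 3.30 and 4.05 in the labelled nontumorigenic arrays. The value 4.05 was the same on 3 arrays, so mouse 3 had a difference of 0. Exact ties of low values recur in these data, and a 0 from them was not read as equal expression. The log2 difference was 1.30 (95% interval -0.52 to 3.12; limma adjusted p = 0.681), the smallest of the 9, and a second probe set of Trem2 had -0.060. Trem2 thus differed less than the adaptor it pairs with, although levels of 2 probe sets cannot be set against each other and the difference between them was not tested.

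Clec7a encodes Dectin-1, a receptor for fungal beta-glucan that carries an activation motif in its own tail. It had 6.75, 5.04 and 2.84 in the labelled tumorigenic arrays and 2.44, 2.71 and 2.34 in the labelled nontumorigenic arrays. The populations did not overlap, though mouse 3 was only 0.50 above its labelled nontumorigenic array. The log2 difference was 2.38 (SE 0.93; limma adjusted p = 0.568), and the labelled nontumorigenic mean was under the dim limit.

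**Figure D2:**
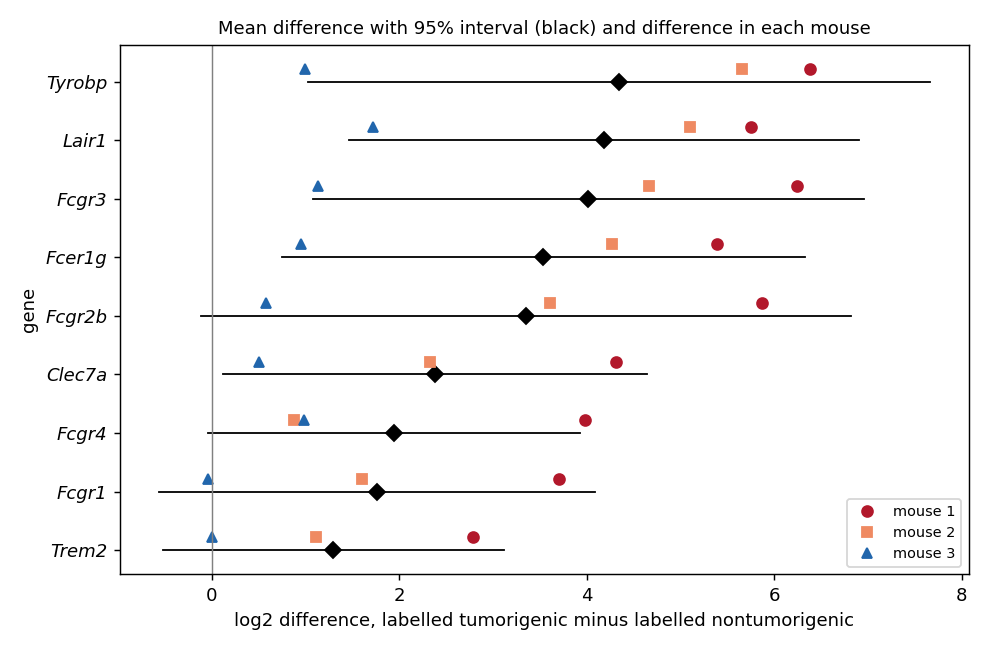
Log2 difference, labelled tumorigenic minus labelled nontumorigenic, for each of the 9 genes: the black diamond is the mean with its 95% interval from limma, and coloured symbols are the differences within mice 1, 2 and 3. Mouse 3 lies nearest to 0 in every row except that of Fcgr4, and the intervals of Fcgr2b, Fcgr4, Fcgr1 and Trem2 include 0.

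Counted over the 9 genes, 0 had a limma adjusted p below 0.05, the background over all 15027 genes being 0%. An unadjusted limma p below 0.05 with a higher labelled tumorigenic mean was found in 5 of the 9, against a background of 5.23%, or 786 genes. In either direction 1277 genes had such a p. With the mouse as a block this was 7 of the 9, against 5.77%, and without mouse 3's labelled tumorigenic array it was 8 of the 9, against 9.04%. Every labelled tumorigenic array lay above every labelled nontumorigenic array in 6 of the 9, against 6.9% of all genes. The difference was above 0 in all 3 mice for 7 of the 9, against 15.9% of all genes, the exceptions being Fcgr1 and Trem2. The order of mouse 1, mouse 2, mouse 3 was found in 8 of the 9, against 16.6%. The 9 were named with earlier results of these data known, so these counts describe them and are not a test.

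The size of the difference varied between the mice. In mouse 1, all 9 genes had a difference above 1 log2 unit, between 2.78 for Trem2 and 6.38 for Tyrobp, where 9.96% of all genes had one. In mouse 2, 8 of the 9 did, against 8.86% of all genes, and the ninth, Fcgr4, had 0.88. In mouse 3, 2 did, Lair1 and Fcgr3, against 5.57% of all genes, and Tyrobp and Fcer1g had 0.997 and 0.95. The other probe sets of Lair1 had 0.25 and 0.069 in mouse 3. Leaving out the labelled tumorigenic array of mouse 1 gave the 9 differences between 0.43 and 3.24, and leaving out that of mouse 3 gave 1.82 to 5.96.

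**Figure D3:**
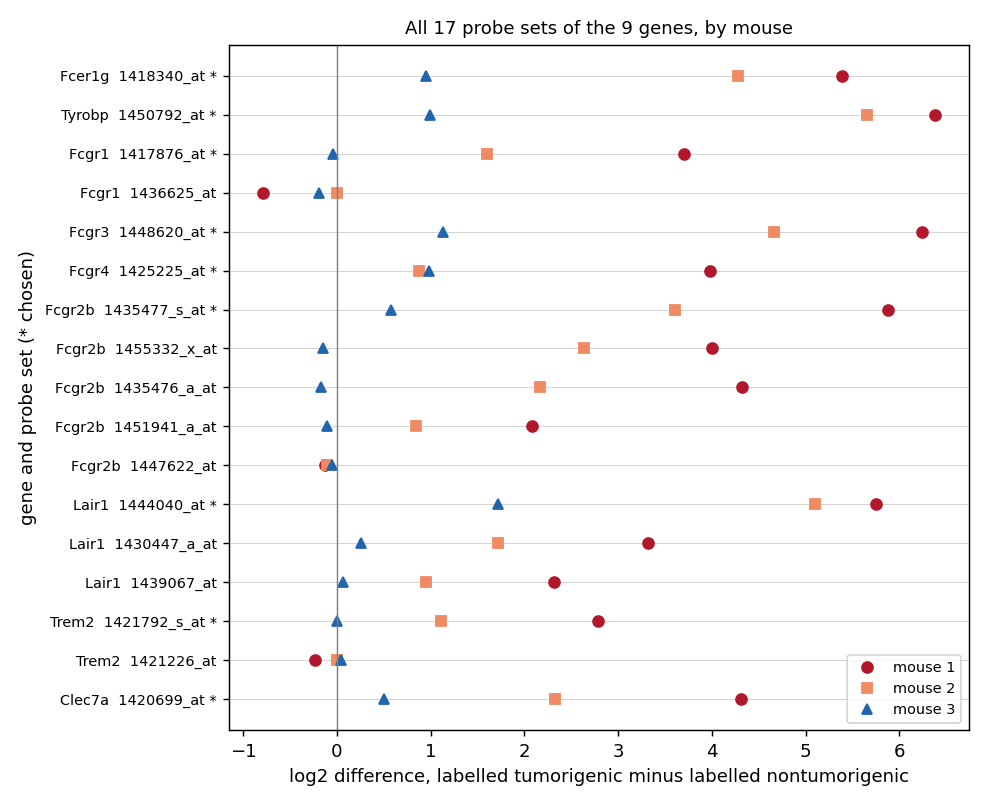
Log2 difference, labelled tumorigenic minus labelled nontumorigenic, within each mouse for all 17 probe sets of the 9 genes, where an asterisk marks the probe set used for the gene. The second probe sets of Fcgr1 and Trem2 and the dimmest of Fcgr2b stay near or below 0, while all others but that of Fcgr4 show the order of mice 1, 2 and 3.

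Genes that act below the ITAM were read from a list of 18 signalling genes, among them kinases, adaptors and phosphatases, of which 15 were measured. None had a limma adjusted p below 0.05, and 2 had a higher mean with an unadjusted p below 0.05, where 5.23% of all genes did. Differences were positive in 13, where 50.7% of all genes were, and negative in 2, and their median was 0.65. In mice 1, 2 and 3 the medians were 1.17, 0.66 and -0.085. Syk, the kinase that binds phosphorylated ITAMs, read 6.48, 5.11 and 4.17 in the labelled tumorigenic arrays and 4.25, 3.90 and 4.09 in the labelled nontumorigenic arrays, a log2 difference of 1.17 (limma adjusted p = 0.632). The mouse order was again that of the receptors, with mouse 3 at 0.082. Inpp5d, the lipid phosphatase SHIP1 that Fcgr2b recruits, had a log2 difference of 1.82 (limma adjusted p = 0.587), or 2.57, 2.22 and 0.67 in mice 1 to 3. The docking protein Dok1 had 0.80 (limma adjusted p = 0.554), with 0.14 in mouse 1, and the adaptor Lat2 had 0.86 (limma adjusted p = 0.608). The others lay between -0.16 for Dok2 and 1.35 for Vav1.

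Other myeloid receptors of the same paired families, with activating and inhibitory members, gave 16 measured genes of 20 listed. Differences were positive in 15 and negative in 1, and their median was 0.88. The medians by mouse were 1.41, 0.98 and 0, and 0 passed the limma adjusted threshold while 1 had an unadjusted p below 0.05, against 5.23% of all genes. Clec4n, which encodes Dectin-2 and signals through the Fcer1g chain, read 7.63, 5.24 and 2.85 in the labelled tumorigenic arrays and 2.63, 2.35 and 2.53 in the labelled nontumorigenic arrays. The populations did not overlap, and the log2 difference was 2.74 (limma adjusted p = 0.587). The inhibitory receptor Pirb had a log2 difference of 2.14 (limma adjusted p = 0.606), the inhibitory Siglece 0.93 (0.587 by limma, adjusted) and Cd300lb 0.87 (0.632 by limma, adjusted). In Cd300lb and Siglece the difference of mouse 3 was 0, an exact tie of low values in each. Fcgrt, the neonatal Fc receptor, which does not use ITAM adaptors and is made by many cell types, had 0.80, or 1.60, 0.80 and 0.0038 in mice 1 to 3, and is given here as a further Fc receptor although the rule for naming genes did not pick it.

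Markers of the cells that carry these receptors differed along the same arrays. Of 16 macrophage and leukocyte markers 15 were tested, 14 had positive differences, and their median was 3.98. In mice 1, 2 and 3 it was 6.50, 3.93 and 0.81, beside 5.39, 3.61 and 0.95 for the 9 receptors and adaptors. Itgam had a mean under the dim limit and was left out. It read 2.52, 2.93 and 2.39 in the labelled tumorigenic arrays and 2.72, 2.52 and 2.39 in the labelled nontumorigenic arrays, so it did not follow the receptors. On a linear scale the summed level of these markers was 1141 to 29905 in the labelled tumorigenic arrays and 672 to 742 in the labelled nontumorigenic arrays, and that of the 9 genes was 170 to 4713 in the labelled tumorigenic arrays and 96.7 to 109 in the labelled nontumorigenic arrays. The mean of 2 of the 15 was under the dim limit in the labelled nontumorigenic arrays. The log2 differences were 6.85 for the complement chain C1qb, 4.67 for the mannose receptor Mrc1, 5.05 for Csf1r, the receptor of macrophage growth factor, and 5.46 for the lysosomal protein Laptm5, with limma adjusted p between 0.247 and 0.455 for these 4. Cd14 was the gene with a negative difference, -0.20. The part of leukocyte content in the differences of the 9 genes was not tested.

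Spi1, named here because its product PU.1 binds the motif shown above, read 5.33, 4.30 and 3.56 in the labelled tumorigenic arrays and 3.58, 3.56 and 3.66 in the labelled nontumorigenic arrays. Mouse 3 had no excess of Spi1 in the labelled tumorigenic array. Over the 3 mice it averaged 0.80 log2 units higher (SE 0.44; limma adjusted p = 0.668).

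Markers of other cell types that use part of the receptors gave other values. Of the 12 NK and T cell markers 9 were measured, with medians of 3.13, -0.10 and 0.085 in mice 1, 2 and 3. Their mean log2 level was 7.02, 4.01 and 3.56 in the labelled tumorigenic arrays of these mice and 4.02, 4.05 and 3.83 in the labelled nontumorigenic arrays. Prf1 was the exception in mouse 1, with differences of -0.47, -0.33 and 1.42 in mice 1, 2 and 3. The part of NK and T cells in the differences of the 9 receptors and adaptors was not tested. Nkg7 had a log2 difference of 5.23 in mouse 1, and -0.10 and -0.033 in mice 2 and 3, and over all mice Nkg7, Cd8a, Klrd1 and Gzmb had 1.70, 1.41, 1.36 and 1.20. Differences were positive in 8 of the 9 and negative in Cd3e, -0.25, with 3.13, -0.35 and -3.55 in mice 1, 2 and 3. The summed level of the 9 was 125 to 2386 in the labelled tumorigenic arrays and 225 to 274 in the labelled nontumorigenic arrays, and without Cd3e it was 108 to 1143 in the labelled tumorigenic arrays and 92.8 to 118 in the labelled nontumorigenic arrays.

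Of the B cell markers, 4 of 6 were measured, with differences between 0.075 for Blk and 0.13 for Pax5, while Cd79a had 0.091 and Cd79b 0.13. Their summed level was 35.1 to 42.3 in the labelled tumorigenic arrays and 34.9 to 37.1 in the labelled nontumorigenic arrays. The mean log2 level of these dim markers was 3.28 and 3.38 on the labelled tumorigenic arrays of mice 1 and 2, on which Fcgr2b was high, and 3.11 to 3.19 on the other 4 arrays. Mast cell and basophil markers were measured in 4 of 8, and the median difference was -0.097. Fcer1a and Ms4a2, the alpha and beta chains that join the Fcer1g chain in the receptor for immunoglobulin E, had means under the dim limit and were left out. Kit, which luminal progenitor cells express too, had -1.34, Hdc 0.25, Cma1 -0.14 and Tpsb2 -0.057, and the summed level was 43.9 to 72.5 in the labelled tumorigenic arrays and 60.9 to 111 in the labelled nontumorigenic arrays. Of the neutrophil markers 5 of 8 were measured, with 1.56 for S100a9, 0.35 for Mmp8, -0.12 for Camp and -0.066 for Ngp. S100a8 had -0.20, with 1.48, 0.15 and -2.24 in mice 1, 2 and 3, and S100a9 had 2.30, 1.91 and 0.46. The neutrophil markers had a summed level of 85.4 to 238 in the labelled tumorigenic arrays and 71.9 to 163 in the labelled nontumorigenic arrays. Csf3r and Cxcr2 had means under the dim limit and were left out. Csf3r read 3.76, 3.11 and 2.80 in the labelled tumorigenic arrays and 2.52, 2.57 and 2.82 in the labelled nontumorigenic arrays. Cxcr2 read 2.48, 2.66 and 2.36 against 2.48, 2.62 and 2.42.

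**Figure D4:**
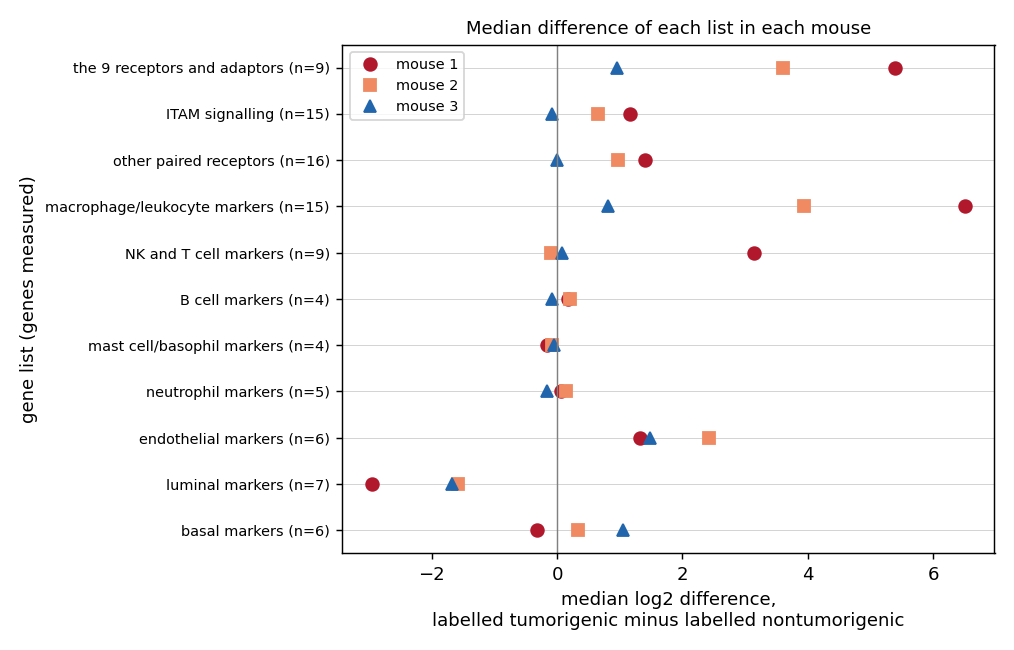
Median log2 difference, labelled tumorigenic minus labelled nontumorigenic, of each gene list in mice 1, 2 and 3, with the number of genes measured in brackets. The 9 receptors and adaptors and the macrophage and leukocyte markers share medians near 5.39 and 6.50 in mouse 1 and below 1 in mouse 3, while NK and T cell markers stand out in mouse 1 alone and the medians of B cell, mast cell and neutrophil markers stay near 0, those of neutrophils with members of both signs.

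Markers of the tumour epithelium and vessels followed other orders of the mice. Luminal markers were negative in 7 of 7, with medians of -2.95, -1.58 and -1.68 in mice 1 to 3, and Ehf, Elf5, Krt19 and Cldn3 had -2.19, -3.10, -2.92 and -1.67. Basal markers had medians of -0.32, 0.33 and 1.06, the reverse order of the receptors, with 0.64 for Tagln, 0.87 for Cnn1, 0.35 for Acta2 and 0.55 for Krt14. Of the 6 basal markers 5 were positive and Trp63 was negative, -0.36, with -0.60, -1.50 and 1.02 in mice 1, 2 and 3. Endothelial markers had 1.32, 2.43 and 1.48, with 2.11 for Robo4, 2.41 for Cldn5, 1.71 for Kdr and 2.11 for Tie1. None of these 3 lists had a member past the limma adjusted threshold, and 5 endothelial, 1 basal and 4 luminal members had an unadjusted p below 0.05. The endothelial and basal ones were higher, against 5.23% of all genes, and the luminal ones were lower in the labelled tumorigenic arrays, against 3.27% of all genes that were lower at that p.

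The genes most like the adaptors over the 6 arrays, by Pearson correlation with the mean of Fcer1g and Tyrobp, were C1qa, Mpeg1, Cd68, Ms4a6d and Ms4a7, with r of 0.997 for C1qa, Mpeg1, Cd68 and Ms4a6d and 0.996 for Ms4a7. C1qa encodes a complement chain, Mpeg1 a pore-forming protein of macrophages and Cd68 a lysosomal glycoprotein, while Ms4a6d and Ms4a7 encode membrane proteins of the MS4A family. Cd68, for example, read 9.09, 7.77 and 5.61 in the labelled tumorigenic arrays and 4.93, 4.68 and 4.87 in the labelled nontumorigenic arrays. Among the other 7 genes of the set, Fcgr3 and Lair1 were the closest, with r of 0.997 and 0.996, and Trem2 the farthest, with 0.841. The 6 points come from 3 mice and 2 arrays lead them, and 188 genes had an r above 0.95, so a high r here describes how strongly a gene follows the labelled tumorigenic arrays of mice 1 and 2.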

How the data were processed

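The deposited values are log2 expression per probe set, made by the authors with RMA, per the submitters' processing notes; its version is not given in the sources used here. RMA gives all arrays a common distribution. Precision is limited by the number of arrays, which carry no read depth. RNA was amplified before labelling, per the labels' protocols.

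Of 45101 probe sets, 64 controls and the 25% with the lowest mean (below log2 2.98) were left out. Genes came from probe sets with 1 symbol (34945), of which 34741 matched RefSeq by Entrez identifier. The labelled populations were compared with limma 3.58.1 in R 4.3.3 on all 15027 genes, without covariates, with two-sided p-values adjusted by Benjamini-Hochberg at 0.05. An exact permutation test of 3 against 3 cannot go below 0.1 and was not used. The mouse pairs the arrays, since both populations come from the same animal. Deviations of same-mouse arrays correlated at 0.079, 0.136 and 0.086. The fit was tested on simulated data.

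The 9 genes and the 10 other lists were chosen with earlier results of these data known. Named are the 9 genes, up to 4 genes per list with the smallest p, Ptprc, and the 5 genes most like the adaptors. Other names (Spi1, Fcgrt, Cd3e, Prf1, Cd14, Itgam, Trp63, S100a8, Csf3r, Cxcr2, Fcer1a, Ms4a2 and Ramp2) were chosen after their values were seen. So were Vav1 and Dok2, as ends of a range. The summed level without Cd3e was added then too. List genes without a value were not analysed here or lay below the dim limit. Alternatives are given in the closing section.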

Additional observations from a re-analysis of the deposited data

How the results depend on the processing

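The 9 genes kept a positive difference under all 18 alternatives in which each was measured. These covered the mouse as a replicate block, other dim filters, renewed quantile normalisation, median centring, other variance priors, array weights, other ways to use probe sets, and leaving out each array or mouse. With the mouse as a replicate block, 0 genes and 0 of the 9 passed the limma adjusted threshold (1435 genes at an unadjusted p below 0.05), the median difference of the 9 was 3.35, and the block changed no call. Of all genes, 1 passed with no filter on dim probe sets and 1 when probe sets of a gene were averaged, Ramp2 in both. Leaving out arrays or mice gave 0 to 18 genes and 0 to 3 of the 9 past the threshold, the highest counts without the labelled tumorigenic array of mouse 3, and a median of the 9 between 2.09 and 4.89. Averaging the probe sets of a gene gave a median of the 9 of 2.36. The differences were then 0.62 for Trem2, 0.72 for Fcgr1, 2.14 for Fcgr2b and 2.36 for Lair1. With the filter at 50%, Fcgr4 and Clec7a were not tested. Dim labelled nontumorigenic values limit the size of the differences of Lair1, Fcgr4 and Clec7a.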
